A study of Mus musculus with 6 samples.

Results

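The 9 transcription regulators described here were the paired-box factors Pax2 and Pax8, the empty-spiracles homeobox factors Emx1 and Emx2, the sine oculis homeobox factor Six4, and the phosphatase co-activators Eya1, Eya2, Eya3 and Eya4. They are 9 of the 23944 gene names on the array and were found by name, which gave 11 of its 55681 probes. Pax2 was read by 3 probes and every other gene by 1. The genes were selected on their measured differences between the LSC GFP+ and LSC GFP- populations defined below, so those differences are a description, with no test.

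Pax2 and Pax8 bind DNA through a paired domain and act together in the nephric, or Wolffian, duct and in the kidney that grows from it. Emx2 acts in the same duct, whose male derivatives are the epididymis, the ductus deferens and the seminal vesicle, whereas the prostate buds from the urogenital sinus. Proteins of the sine oculis family, such as Six4, bind DNA through a homeodomain, Eya proteins join them as co-activators with a phosphatase activity, and Dach proteins are co-repressors of the same network.

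Gene expression was measured on 1-colour microarrays in prostate cells of 6-day-old male FVB/N mice carrying the Tg 11.5kb-GFP transgene, in which the s-SHIP promoter drives GFP. The animals were not treated, and both populations came from transgenic mice. Digested prostates were sorted for cells lacking the lineage markers Ter119, CD31 and CD45 and carrying Sca-1 and CD49f (Lin- Sca-1+ CD49f+, here LSC), and these were split into LSC GFP+ and LSC GFP-, with 3 samples of each. The s-SHIP promoter is also active in a class of vascular smooth muscle cells, so GFP alone does not mark an epithelial cell. The paper reports little or no Sca-1 and CD49f on those muscle cells, and only epithelial cells in the LSC fraction. Whether a sample came from 1 animal or from pooled animals was not given in the sources used here. All 6 arrays lay on 1 slide and were read in 1 scan, and between 36670 and 42158 probes were well above background on each. The unit throughout is the log2 signal relative to the 75th percentile of the same array. A value of 0 is as bright as that percentile, and a difference of 1 is a doubling. Because probes bind with different strength, values are compared between arrays for 1 probe and not between genes, except where probes that hold a repeat are described as a class. In these bulk samples, fewer cells of a type and less RNA per cell cannot be told apart.

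The probe sequences bear on what each reading measures, so those the results turn on are shown, 5′ to 3′ as the array files list them. The 3 Pax2 probes lie on the plus strand of chromosome 19 in the mouse build mm9 (NCBI37), at chr19:44835420-44835479, chr19:44871124-44871183 and chr19:44909895-44909954. They start at bases 95, 619 and 1101 of the Pax2 transcript NM_011037, so they sample it at separate places along the gene. The first reads part of the paired box, which encodes the DNA-binding domain.
Pax2, probe A_55_P2148518: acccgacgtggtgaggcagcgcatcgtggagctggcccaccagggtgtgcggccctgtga
Pax2, probe A_55_P2075125: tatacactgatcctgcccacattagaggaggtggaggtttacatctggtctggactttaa
Pax2, probe A_55_P2075127: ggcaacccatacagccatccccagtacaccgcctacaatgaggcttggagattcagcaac

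The other single-probe genes whose populations separated are shown by the last 30 bases of their 60-base probe, beside the last 30 bases of the Eya1 probe. The Pax8 probe lies at chr2:24276147-24276206 on the minus strand, the Emx2 probe at chr19:59539142-59539201 on the plus strand, the Six4 probe at chr12:74201246-74201305 on the minus strand, the Eya4 probe at chr10:22824002-22824061 on the minus strand and the Eya1 probe at chr1:14159982-14160041 on the minus strand, all in mm9. Capitals mark a thymine-guanine repeat.
Pax8: ctatgttggggttttctccttcatactttt
Emx2: ttgtaattttattcctcttttaaagacagg
Six4: ttgttattctgcatgttaaagctggaattc
Eya4: aaatatggttggaatattttaatactaata
Eya1: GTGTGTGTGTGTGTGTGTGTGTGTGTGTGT
The Eya1 probe was a repeat over its last 34 bases, and the longest such run in any other of the 11 probes was 5 bases.

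Pax2, Pax8 and Emx2, the factors of the nephric duct, lay lower in LSC GFP+ than in LSC GFP- cells, and Six4 lay higher. Emx1, Eya1, Eya2 and Eya3 overlapped between the populations, and Eya4 was not above background in any LSC GFP+ sample. Of the 9 genes, 8 were well above background on all 6 arrays and passed the filter used for the whole array, and Eya4 did not pass it. Among those 8, the populations did not overlap for 4, with Pax2, Pax8 and Emx2 lower and Six4 higher. Of the 37023 probes that passed the filter, 12.3% did not overlap between the populations, 5.66% lower and 6.6% higher in LSC GFP+. Since this contrast chose the genes, nothing is read from that comparison. For scale, 1.42% of the probes were without overlap and lower by at least as much as Pax2, the smallest of the 3, and 0.845% were without overlap and higher by at least as much as Six4.

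Pax2 was brightest at the probe nearest the 3′ end of the gene. There it read 0.98, 0.71 and 1.26 in LSC GFP+ replicates 1, 2 and 3, and 1.44, 2.29 and 2.51 in LSC GFP- replicates 1, 2 and 3. The means were 0.98 ± 0.27 and 2.08 ± 0.56 (SD, n = 3 each), a difference of -1.10, or 2.14-fold lower in LSC GFP+. The highest LSC GFP+ sample and the lowest LSC GFP- sample were 0.18 apart, and the lowest LSC GFP- sample was replicate 1.

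The other Pax2 probes separated the populations in the same direction. The paired-box probe read 0.02, 0.24 and 0.35 in LSC GFP+ against 0.46, 1.15 and 1.22 in LSC GFP-, a difference of -0.74. The middle probe read -1.21, -0.77 and -0.94 against -0.25, 0.33 and -0.07, a difference of -0.98 and the widest gap between populations of the 3, at 0.52. All 3 probes were lower in the LSC GFP+ sample of each same-numbered pair. Fold differences ranged from 1.67 at the paired box to 2.14 at the 3′ probe.

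**Figure D1:**
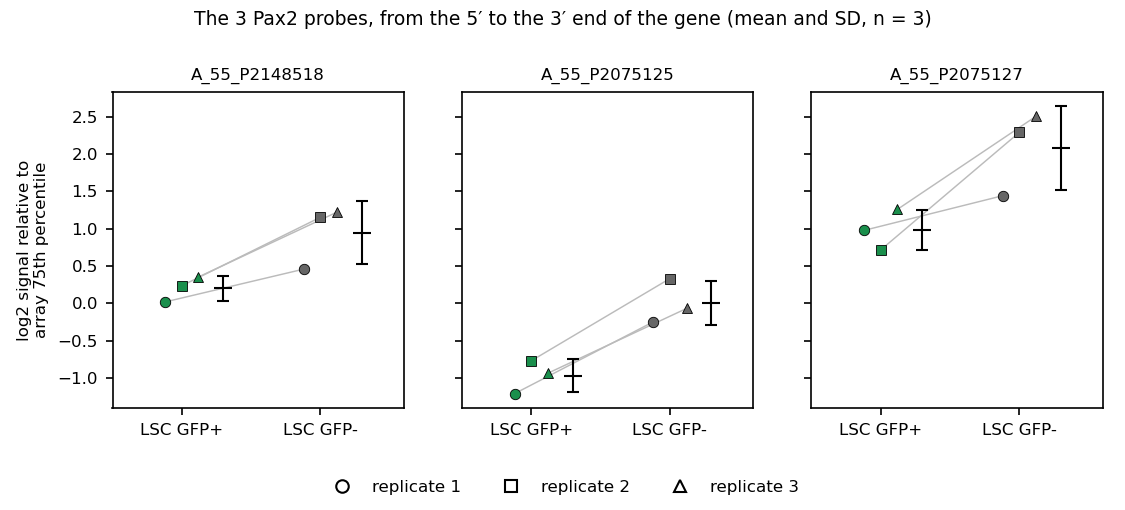
Log2 signal relative to the array's 75th percentile for the 3 Pax2 probes, ordered along the gene; each point is 1 array, symbols mark the replicate number, grey lines join samples of the same number, and the bars are the mean and SD of 3 samples. At every probe the 3 LSC GFP+ samples sit below the 3 LSC GFP- samples, by the narrowest margin, 0.11, at the paired-box probe.

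Pax8, the partner of Pax2 in the duct, read -2.47, -2.16 and -1.14 in LSC GFP+ replicates 1, 2 and 3 and -0.66, -0.35 and 0.06 in LSC GFP-. The means were -1.92 ± 0.70 and -0.32 ± 0.36 (SD, n = 3 each), 3.05-fold lower in LSC GFP+, with a gap of 0.48. Replicate 1 was the lowest and replicate 3 the highest sample within both populations. The differences within the same-numbered pairs were -1.81, -1.81 and -1.20.

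Emx2 read -3.20, -1.58 and -0.96 in LSC GFP+ and -0.77, -0.19 and 0.04 in LSC GFP-. The means were -1.92 ± 1.16 and -0.31 ± 0.42 (SD, n = 3 each), also 3.05-fold lower in LSC GFP+. LSC GFP+ replicate 1 stood far below the others, and the gap between the populations was 0.19. As for Pax8, replicate 1 was lowest and replicate 3 highest within both populations. Without LSC GFP+ replicate 1 the difference for Emx2 was -0.97.

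The separation of Emx2, and of Pax2 at its brightest and paired-box probes, rested on a narrow margin, whereas the middle Pax2 probe had a gap of 0.52. When the array median served as the scale instead of the 75th percentile, the populations overlapped for the brightest Pax2 probe by 0.01 and for Emx2 by 0.003, whereas Pax8 and Six4 remained apart. The differences themselves were then -1.03 for Pax2 and -1.54 for Emx2.

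Emx2os, a transcript of the opposite strand named for Emx2, had 2 probes on the minus strand 31.8 and 39.4 kb from the Emx2 probe. The nearer one read -4.13, -3.52 and -2.46 in LSC GFP+ and -1.98, -1.35 and -1.85 in LSC GFP-, without overlap and -1.64 apart in the mean. The farther one overlapped, with a difference of -0.09, so the 2 probes disagreed. These probes came from a search of annotated probes within 100 kb of the 9 genes, made after values had been seen. Of the 21 such probes that passed the filter, 4 lay higher and 2 lower without overlap, where the shares over all tested probes were 6.6% and 5.66%. Among the 4 were AK142897 and Smpdl3b, above background on 3 LSC GFP+ and 0 LSC GFP- arrays. Both passed the filter only through the population where they were higher, so nothing is read from these counts.

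Emx1 read -1.71, -1.98 and -1.80 in LSC GFP+ and -1.83, -1.55 and -1.89 in LSC GFP-. The difference was -0.08, within the SD of either population, and the populations overlapped.

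Six4 read -0.30, -0.68 and -0.93 in LSC GFP+ replicates 1, 2 and 3 and -1.29, -1.74 and -1.63 in LSC GFP-. The means were -0.64 ± 0.32 and -1.56 ± 0.24 (SD, n = 3 each), 1.89-fold higher in LSC GFP+, with a gap of 0.36. Replicate 1 was the highest sample in both populations, the reverse of Pax8 and Emx2. The pair differences were 0.99, 1.07 and 0.70.

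Eya2 read 3.69, 4.02 and 3.89 in LSC GFP+ and 3.37, 3.58 and 3.81 in LSC GFP-. The mean was 0.28 higher in LSC GFP+, and the populations overlapped through LSC GFP+ replicate 1 and LSC GFP- replicate 3. Within the same-numbered pairs LSC GFP+ was higher by 0.33, 0.44 and 0.08. Eya2 had no overlap under quantile normalization. Leaving out either of the 2 overlapping samples also removed the overlap, which had to follow, since it lay between those samples alone.

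Eya3 read -1.19, -1.08 and -1.03 in LSC GFP+ and -0.95, -1.25 and -1.16 in LSC GFP-. The difference was 0.02 and the populations overlapped.

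Eya4 was well above background in LSC GFP- replicates 1 and 3 and in no LSC GFP+ sample. Its readings were -5.17, -6.42 and -6.54 in LSC GFP+, where they mark only a bound, and -3.23, -4.49 and -3.70 in LSC GFP-. Set against the dimmest probes still well above background on the same arrays, or its own reading where that was higher, Eya4 was at least 3.06-fold lower in LSC GFP+ on this scale, with LSC GFP- replicate 2, itself not above background, included in the LSC GFP- mean. With a normexp background correction the log2 difference was -0.58, smaller than that bound, so the bound does not carry over to other background corrections.

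**Figure D2:**
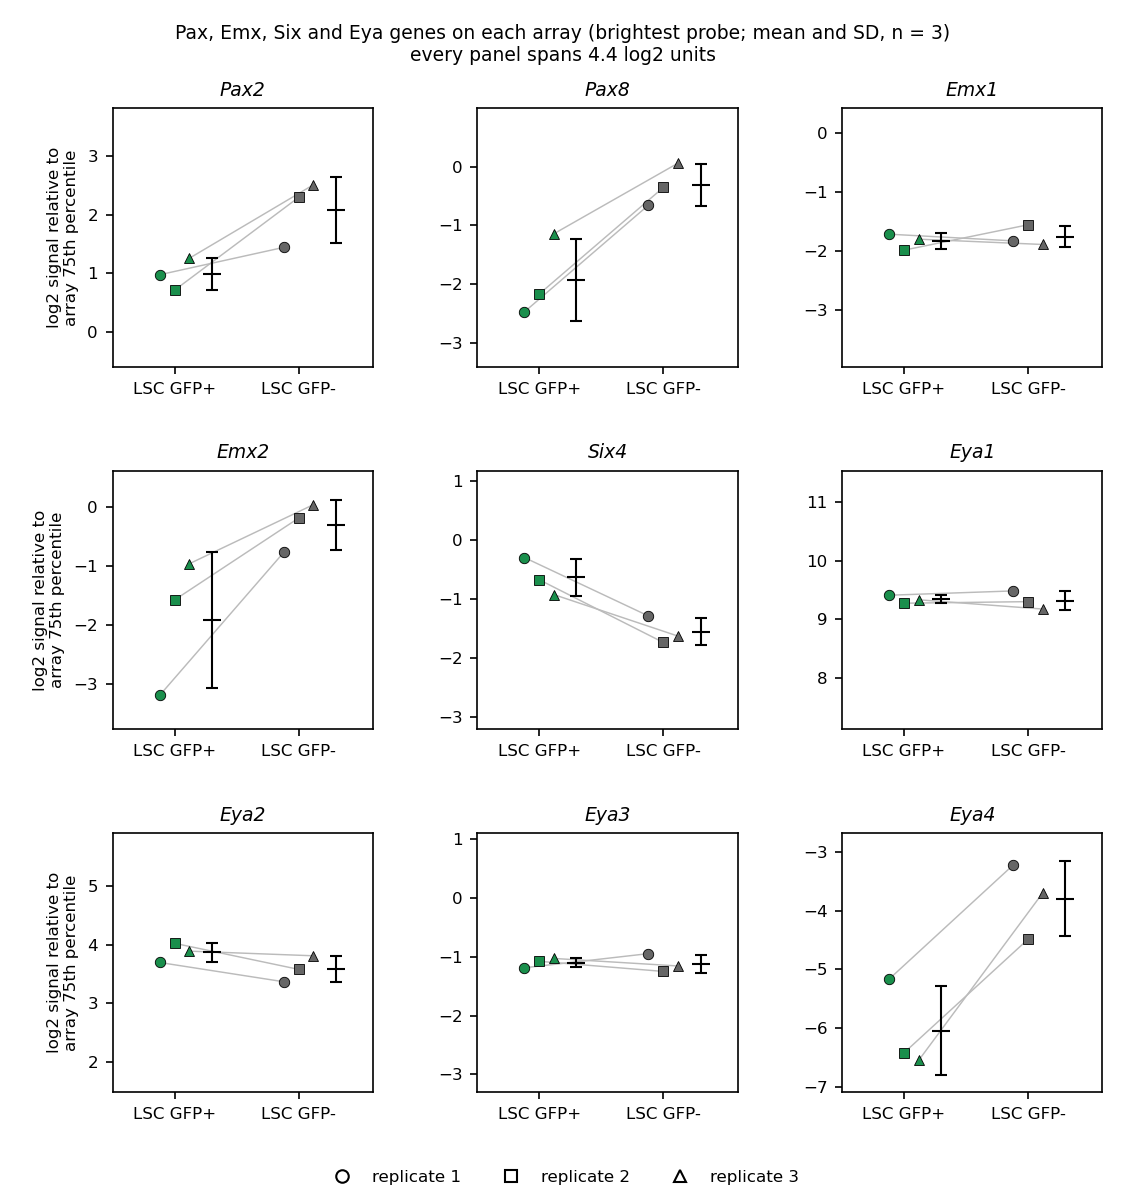
Log2 signal relative to the array's 75th percentile for the 9 genes at their brightest probe; each point is 1 array, symbols mark the replicate number, grey lines join samples of the same number, the bars are the mean and SD of 3 samples, and every panel spans the same range. Pax2, Pax8, Emx2 and Eya4 sit lower in LSC GFP+, Six4 sits higher, and the other 4 genes overlap.

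Eya1 was read by the repeat probe shown above. The values were 9.41, 9.28 and 9.33 in LSC GFP+ and 9.48, 9.30 and 9.18 in LSC GFP-, a difference of 0.02. On the whole array, all 25 probes with a thymine-guanine run of 30 bases or more had means between 9.16 and 9.94, and their population differences lay between -0.13 and 0.05. Their median was 9.42, against -2.52 for the 55492 probes with a run under 10 bases. The Eya1 probe, at 9.33, was brighter than 9 of the other 24 and dimmer than 15. Its reading lay within the range of probes with such a repeat. Whether it holds any Eya1 signal was not tested, and no level of Eya1 is drawn from it.

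**Figure D3:**
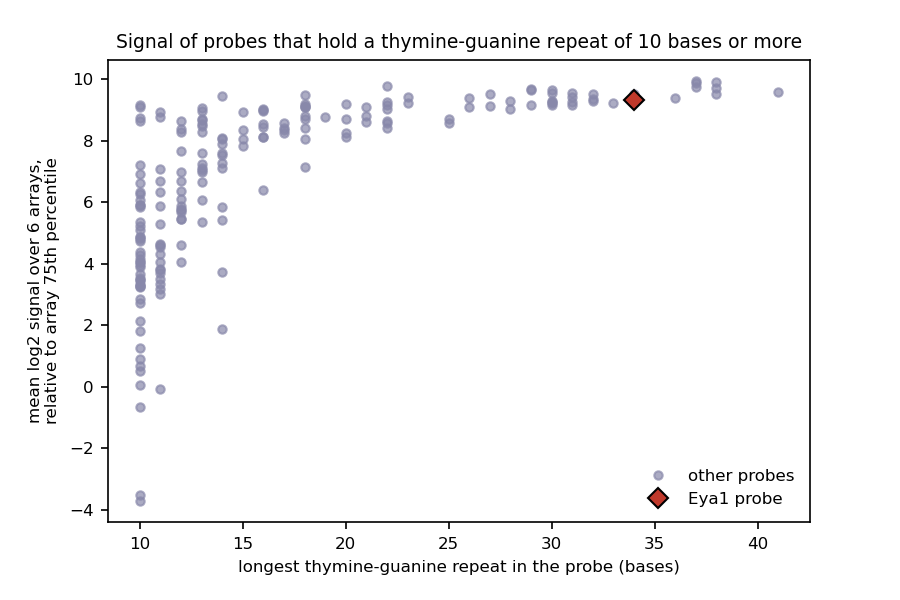
Mean log2 signal over the 6 arrays, relative to the array's 75th percentile, against the longest thymine-guanine repeat in the probe in bases, for every probe with a run of 10 bases or more; each point is 1 probe and the diamond is the Eya1 probe. Probes with a run of 30 bases or more all lie between 9.16 and 9.94, the Eya1 probe at 9.33 among them.

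The genes with the most similar course over the 6 arrays were sought for Emx2, Pax8 and Pax2, which varied most among the 8 genes above background on every array. The measure was Pearson's r over 6 arrays among 20728 probes with a gene symbol, each well above background on all 6 arrays. These arrays share the population difference and the replicate numbers. Emx2 was closest to Irx1, an Iroquois homeobox factor, followed by Zfp784 and Cyp2d12, with r between 0.998 and 0.999. Pax8 was closest to Gngt2, 2310030G06Rik and Fxyd4. Pax2 was closest to Pex11a, Fggy and Lpar1. At a lower threshold, an r of 0.95, 237 of the 20728 probes passed with Emx2, 179 with Pax8 and 37 with Pax2. Pearson's r takes no account of the size of a change, and the population differences of the closest genes ran from -1.93 to -0.36.

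To place these genes among their partners, 58 related genes in 5 lists were looked up, of which 57 had a probe. The 43 that passed the filter were read at their brightest probe in the limma fit across the whole array. At an unadjusted p under 0.05, LSC GFP+ cells had 8 of these 43 genes higher and 8 lower, where 7.91% of all probes tested were called, 3.38% higher and 4.53% lower. Of the 8 lower, Ret, Osr2 and Fgf10 passed the filter only through LSC GFP-, the population where they were higher. With the filter of all 6 arrays, 8 were higher and 5 lower. The median difference of the 43 genes was 0.01, and that of all tested probes was -0.004. No related gene passed a Benjamini-Hochberg adjustment, and 1 of the 37023 probes, or 0.0027%, did. In a fit blocked by replicate number, since same-numbered samples deviated together, the unadjusted calls over the array went from 2927 to 5481 (2493 higher, 2988 lower) and those among the related genes to 10 higher and 9 lower, none of them passing the adjustment.

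Of the other Pax genes, 2 of 7 passed the filter, and Pax9, which acts in foregut pouches and teeth, was 0.61 higher. Pax1 and Pax7 were above background on no array.

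Of the 11 cofactors of Pax, sine oculis and Eya proteins, all passed the filter, 2 were higher and 1 lower. Dach1, the co-repressor of the Six4 and Eya network, had means of 2.20 ± 0.23 in LSC GFP+ and 1.72 ± 0.09 in LSC GFP- (SD, n = 3 each), 0.49 higher and without overlap. Skil, of the Ski co-repressor family, was 0.68 higher. Tle2, a Groucho co-repressor of the kind that binds Pax proteins, read -1.51, -0.29 and -2.54 against 0.47, 0.88 and 0.11, 3.82-fold lower and without overlap.

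The nephric duct and kidney list divided. Among its 20 genes above the filter, 5 lay lower in LSC GFP+ and 2 lay higher. Of the 5, Ret and Osr2 passed the filter only through LSC GFP-. Wt1, a zinc-finger factor of the gonad and kidney mesenchyme, read -3.35, -3.70 and -3.49 in LSC GFP+ and -1.16, -2.13 and -1.69 in LSC GFP-, 3.62-fold lower, with a limma adjusted p of 0.0954. Ret, the receptor for GDNF that the duct uses to branch, was above background on 0 of 3 LSC GFP+ and on 3 of 3 LSC GFP- arrays. As measured, Ret was 2.72-fold lower in LSC GFP+ (limma adjusted p = 0.350), where all 3 readings mark only a bound. Osr2, an odd-skipped zinc-finger factor, was 1.58 lower on the log2 scale, at -4.10 against -2.51, and above background on 1 of 3 LSC GFP+ arrays, so that 2 of the 3 LSC GFP+ readings mark only a bound.

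Robo2, a Slit receptor, went the other way. It read 0.32, 0.53 and -0.17 in LSC GFP+ and -1.08, -1.76 and -2.69 in LSC GFP-, 4.19-fold higher and without overlap, with a limma adjusted p of 0.139. Foxc1, a forkhead factor, was 0.51 higher. Gdnf, Sall1 and Hoxc11 were above background on no array, and Gata3, Lhx1, Osr1, Wnt4 and Wnt9b, which also act in the duct or the kidney, passed the filter and were not called.

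Among genes reported elsewhere as targets of sine oculis and Eya proteins, 7 of 11 passed the filter, with 2 higher and 2 lower. Ccnd1, cyclin D1, and Nrarp, a feedback inhibitor of Notch signalling, were both 0.78 higher in LSC GFP+. Fgf10, a growth factor made by mesenchyme, read -5.90, -5.11 and -5.18 in LSC GFP+, above background on 1 array, and -2.20, -3.10 and -2.59 in LSC GFP- (limma adjusted p = 0.0656). The fourth called gene, Myog, a muscle factor, was 0.67 lower on the log2 scale and overlapped, and it is also on the skeletal muscle marker list. Leaving out 1 sample at a time gave 4 to 8 related genes higher and 5 to 7 lower. The number higher dropped to 4 or 5 without replicate 2 or 3 of LSC GFP+ or replicate 1 or 2 of LSC GFP-, and the number lower to 5 without replicate 2 or 3 of LSC GFP+ or replicate 1 of LSC GFP-.

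**Figure D4:**
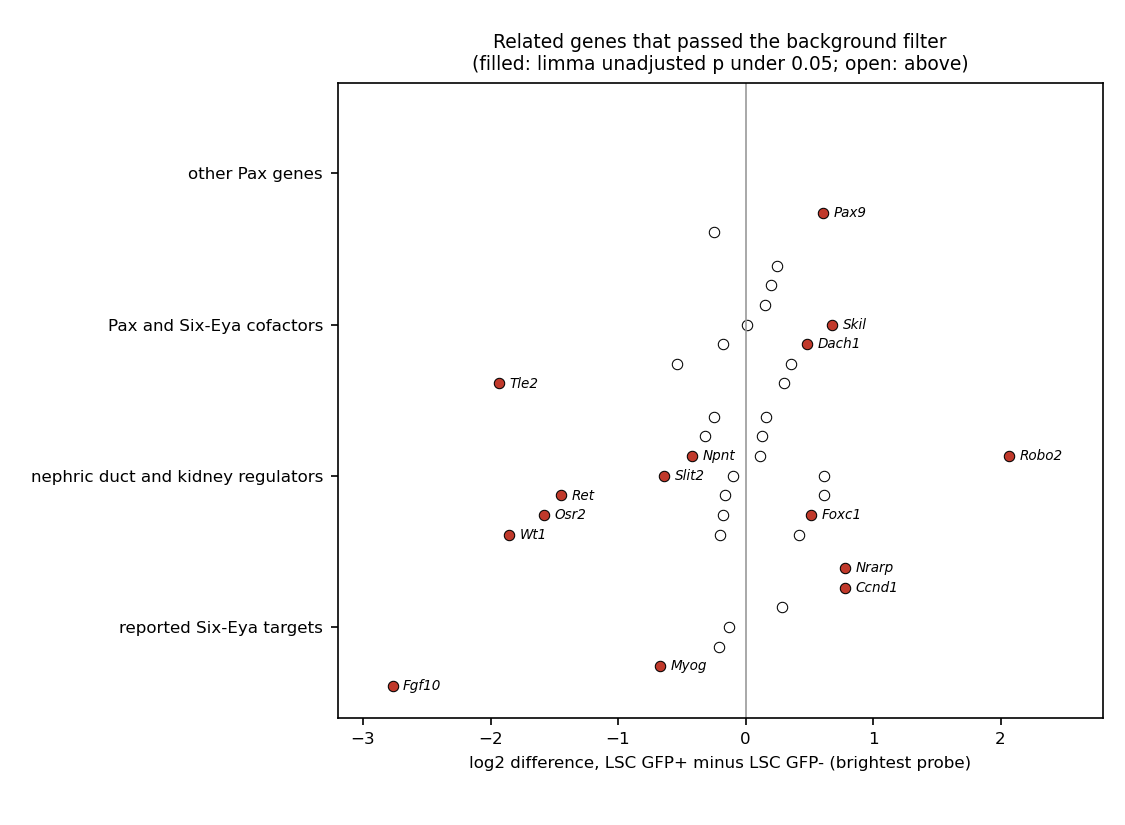
Log2 difference between population means, LSC GFP+ minus LSC GFP-, for 39 of the 43 related genes that passed the background filter, by list (rows; the vertical scatter within a row only separates points). Filled points carry an unadjusted limma p under 0.05 and are named, 7 higher and 8 lower in LSC GFP+, from Fgf10 at -2.77 to Robo2 at 2.07; in LSC GFP+, Fgf10 and Osr2 were above background on 1 of 3 arrays and Ret on 0 of 3, so their points rest on readings that are only bounds.

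Marker genes of other cells also differed between the populations at an unadjusted p under 0.05, and none passed the adjustment. Trp63, Itga6 and Ly6a, the last 2 encoding the sorted antigens CD49f and Sca-1, did not pass the test, at 0.11, 0.25 and -0.36, and Krt5 and Krt14 were 0.70 and 1.18 higher in LSC GFP+. Trp63 had 4 probes, of which only the brightest was read here. The paper names Trp63, with Krt5 and Krt14, among the basal marker transcripts enriched in LSC GFP+. Pecam1 and Ptprc, which encode the excluded antigens CD31 and CD45, were well above background on all 6 arrays, at means of -3.12 and -1.48 in LSC GFP+ and -2.57 and -1.43 in LSC GFP-, and were not called. All 6 tested smooth muscle markers were lower in LSC GFP+, among them Acta2 at -2.13 and Myh11 at -2.01. The summed linear signal of the 7 smooth muscle genes on the list, in multiples of the array's 75th percentile, ranged from 6.22 to 10.0 in LSC GFP+ and from 19.6 to 37.7 in LSC GFP-. Of 8 tested stromal markers, 5 were lower, among them Col1a1 at -2.18 and Col1a2 at -2.15, and 2 were higher. Of the 5, Pdgfra was above background on 2 of 3 LSC GFP+ arrays and passed the filter only through LSC GFP-. The sums over the 9 listed genes were 24.4 to 31.3 in LSC GFP+ and 24.0 to 63.0 in LSC GFP-. Such a linear sum weighs the brightest probes most. Of 6 tested skeletal muscle markers, 3 were lower, Myog, Acta1 at -1.23 and Tnnt3 at -0.85, and the sum over the 9 listed genes was 1.38 to 2.29 in LSC GFP+ and 2.57 to 5.18 in LSC GFP-, without overlap.

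The order of samples within LSC GFP- differed between these marker sums and the Pax and Emx genes. The smooth muscle, stromal and skeletal muscle sums were highest in LSC GFP- replicate 1, the sample in which Pax2, Pax8 and Emx2 were lowest. Wt1, Osr2 and Fgf10 were highest in that sample, as was Eya4. Within LSC GFP+, the brightest Pax2 probe and the smooth and skeletal muscle sums were lowest in replicate 2. The paired-box and middle Pax2 probes, Pax8, Emx2 and the stromal sum were lowest there in replicate 1. The seminal vesicle and Wolffian duct list, of which 6 of 12 genes passed the filter, had 1 gene called lower, Svs5, a seminal vesicle secretory protein, at -2.16. Svs5 was above background on 2 of 3 LSC GFP+ arrays and passed the filter only through LSC GFP-. The summed signal of the list was 3.15, 6.31 and 9.62 in LSC GFP+ replicates 1, 2 and 3 and 6.35, 11.1 and 14.2 in LSC GFP-. This sum was lowest in replicate 1 and highest in replicate 3 of both populations, as were Pax8 and Emx2. The basal marker sum had the same order, at 311, 331 and 367 in LSC GFP+ and 274, 281 and 316 in LSC GFP-. The luminal sum was also highest in replicate 3 of both populations. The part of other cell types in the differences of Pax2, Pax8, Emx2, Six4 and Eya4 was not tested.

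**Figure D5:**
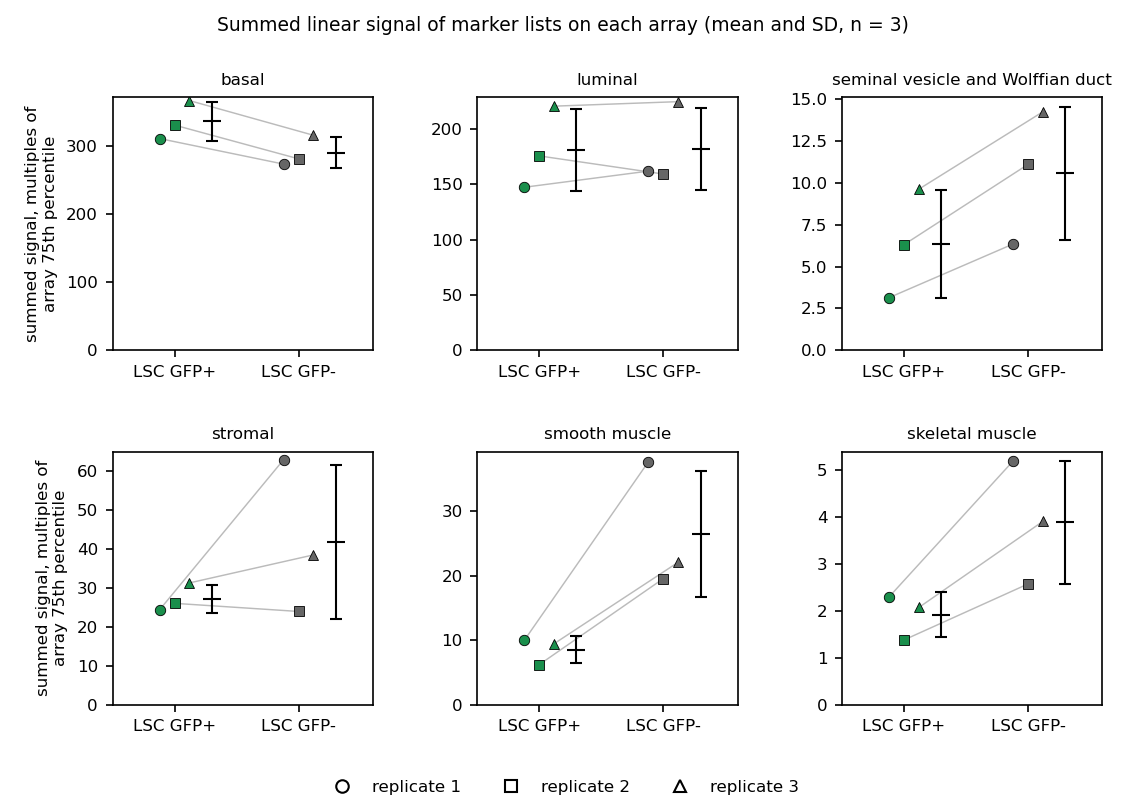
Summed linear signal of 6 marker lists on each array, in multiples of the array's 75th percentile; symbols mark the replicate number, grey lines join samples of the same number, and the bars are the mean and SD of 3 samples. The smooth muscle sum is higher in every LSC GFP- sample, and the seminal vesicle and Wolffian duct sum runs from 3.15 to 9.62 in LSC GFP+ and from 6.35 to 14.2 in LSC GFP-.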

How the data were processed

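RNA of 6 samples was amplified with the Ovation Pico WTA kit and hybridised to Agilent 1-colour mouse arrays. The authors deposited scanner files with fluorescence intensity per spot, and the processed intensity, background-corrected by Agilent Feature Extraction 11.0.1.1 per the file headers (10.7.3.1 in the submitters' processing notes), was used. The log2 scale was computed here from the deposited intensity, minus each array's 75th percentile, and outlier spots were left out. The deposited value table, of processed signal with its scaling not stated, was put on the same log2 scale. It followed the same values closely and served as an alternative. The filter kept probes that cleared background on each of the 3 arrays of either population, and these were fitted with limma 3.58.1 in R 4.3.3 (two-sided, Benjamini-Hochberg), after tests on simulated data. The methods' t-test was an alternative. The number of arrays limits the precision, and each p-value sets a difference of means against the spread between these samples.

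The members and gene lists were chosen with earlier results of these data known. Each gene was described at its brightest probe. Related genes were named if they passed an unadjusted p of 0.05 without overlap, at most 3 per list and direction, and of each marker list the sort markers and at most 2 others. Samples of the same number deviated together (r = 0.433, 0.277 and 0.668 over probes), and samples of different numbers gave r from -0.547 to 0.223. The numbers were taken to pair samples in the descriptions and in the blocked fit. The main limma fit left them out. Positions are those of the array design (mm9), with no gene annotation of that build used here. Some of the related genes are counted but not reported singly here.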

Additional observations from a re-analysis of the deposited data

How the results depend on the processing

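Of 122 recomputed differences of the 11 probes under other settings, 121 moved by less than the spread between replicates and none of those without overlap changed sign; the exception was Eya4 under the normexp correction, at -0.58. The number of the 9 genes lower without overlap was 4, and 2 with median scaling. The number higher without overlap was 1, and 2 with quantile normalization, with leaving out 1 sample at a time (1 to 2) and with the replicate block (same sign in all 3 pairs), the added gene being Eya2.

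Over all probes, the unadjusted calls were 2927 (1250 higher, 1677 lower) and 5481 (2493 higher, 2988 lower) with the replicate block; leaving out 1 sample gave 876 to 1378 higher and 1171 to 2797 lower. The split also moved to 1668 higher and 1608 lower with quantile normalization, 1470 and 1301 with median scaling, and 1579 and 1221 with the methods' t-test, and the median of all probes shifted by at most 0.069. The 1 adjusted call became 3 with quantile normalization or median scaling, 0 with normexp, with the filters of all 6 arrays, at least 1 array or none, with the methods' t-test and with the replicate block, and 0 to 3 without 1 sample. Related genes numbered 8 higher and 8 lower; the filter of all 6 arrays and the methods' t-test each gave 5 lower, the filters of at least 1 array and of none each gave 5 higher, and leaving out 1 sample gave 4 to 8 higher and 5 to 7 lower. The causes were not tested.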
